A study of Mus musculus with 12 samples.

Results

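Cells kept in solvent alone for 12 h were compared with cells kept in it for 6 h. The comparison used the 6 arrays of DMSO cultures among the 12 arrays of a study of LBH589 (panobinostat), an inhibitor of histone deacetylases, in MP cells, which model Group 3 medulloblastoma, a cerebellar tumour driven by MYC, in the mouse. Every array titled as DMSO at 12 h was set against the DMSO array at 6 h of the same tumour, MP525, MP567 or MP570, and all genes with a probe set of their own were read. The groups were 0.00025% DMSO for 6 h (n = 3), 0.00025% DMSO for 12 h (n = 3), and, given beside them, 25 nM LBH589 for 6 h and for 12 h (n = 3 each). All 12 dishes held tumour cells isolated out of cerebella of immunodeficient NSG mice, broken up to single cells and plated in neurocult medium with proliferation supplement. Each tumour gave 1 culture for each treatment and time, with no untreated culture and no culture at 0 h among the groups, so time in DMSO cannot be told apart from time since dissociation and plating. The MP model is known to be built by giving cerebellar stem cells MYC and a dominant-negative p53; this is background and not in the labels.

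The labels give the arrays as Affymetrix Mouse Gene 2.0 ST, while the submitters' processing notes name software for Agilent arrays, and which of these holds was not settled. All levels below are the deposited log2 values of 1 probe set per gene. Of 22180 genes with a probe set that names no other gene, 18652 were bright enough to be tested and 3528 were not. Array medians lay between 7.10 and 7.21 and arrays correlated with each other at 0.965 to 0.991. Of 15 markers of Group 3 medulloblastoma, 14 lay above the 25th percentile on all 6 DMSO arrays. So did 14 of 15 markers of microglia and macrophages and 8 of 8 of astrocytes. The count therefore does not set Group 3 cells apart. Myc stood at 8.51 ± 0.16 at 6 h and 8.52 ± 0.16 at 12 h (mean ± SD, n = 3), and Otx2, a transcription factor of Group 3 tumours, at mean levels of 7.27 and 7.42. The p-values measure the spread between cultures left after tumour and group means are taken out, pooled over all 12 arrays. The number of arrays limits their precision.

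Interferons are secreted antiviral proteins. Cells make them when sensors such as RIG-I and MDA5 find double-stranded or unusual RNA, and their receptors act through JAK kinases and a STAT complex with IRF9 that binds the interferon-stimulated response element in promoters. ATF4 is the transcription factor of the amino acid response, made when amino acids run short or proteins misfold, and it drives amino acid transporters, enzymes of serine and asparagine synthesis and aminoacyl-tRNA synthetases.

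Between 6 and 12 h in DMSO, 41 genes rose and 17 fell of the 18652 tested. These are 0.311% of the genes tested, 0.22% higher and 0.0911% lower (limma with the tumour as a block, Benjamini-Hochberg adjusted p under 0.05). Rises reached further than falls. Their log2 changes ran from 0.33 to 2.65, with 22 of at least 1 and 4 of at least 2, and those of the falls from -0.92 to -0.25. All 58 genes moved the same way in each of the 3 tumours, and for 44 of them the 3 values at one time lay clear of the 3 at the other, 33 higher and 11 lower. Among all genes tested, 3.39% lay clear upwards and 3.27% downwards, while 16.2% were higher and 17% lower in all 3 tumours. Of the 41 rises 28 were genes of 7 interferon lists, and of the 17 falls 9 were in the list of ATF4 and the integrated stress response. The pairing by tumour mattered for the number of calls. Without the block only Rnf213, Ddx58, Usp18 and Parp12 were called (limma adjusted p = 0.000759, 0.000313, 0.00504 and 0.0112). Of the 58 genes, 14 kept the call without each single DMSO array (Usp18, Rnf213, Parp12, Ddx58, Eif2ak2, Irf7, Oasl2, Oasl1, Irgm2, Trim25, Ccl5, Saa3, Zc3hav1 and Slc7a3). The first 6 of these also kept it without each tumour as a whole, and no other of the 58 did. Without all arrays of MP525, MP567 or MP570, 13, 41 and 17 genes were called. Leaving out 1 array gave 21, 37 and 20 calls without the 6 h arrays of MP525, MP567 and MP570, and 31, 58 and 21 without their 12 h arrays.

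**Figure D1:**
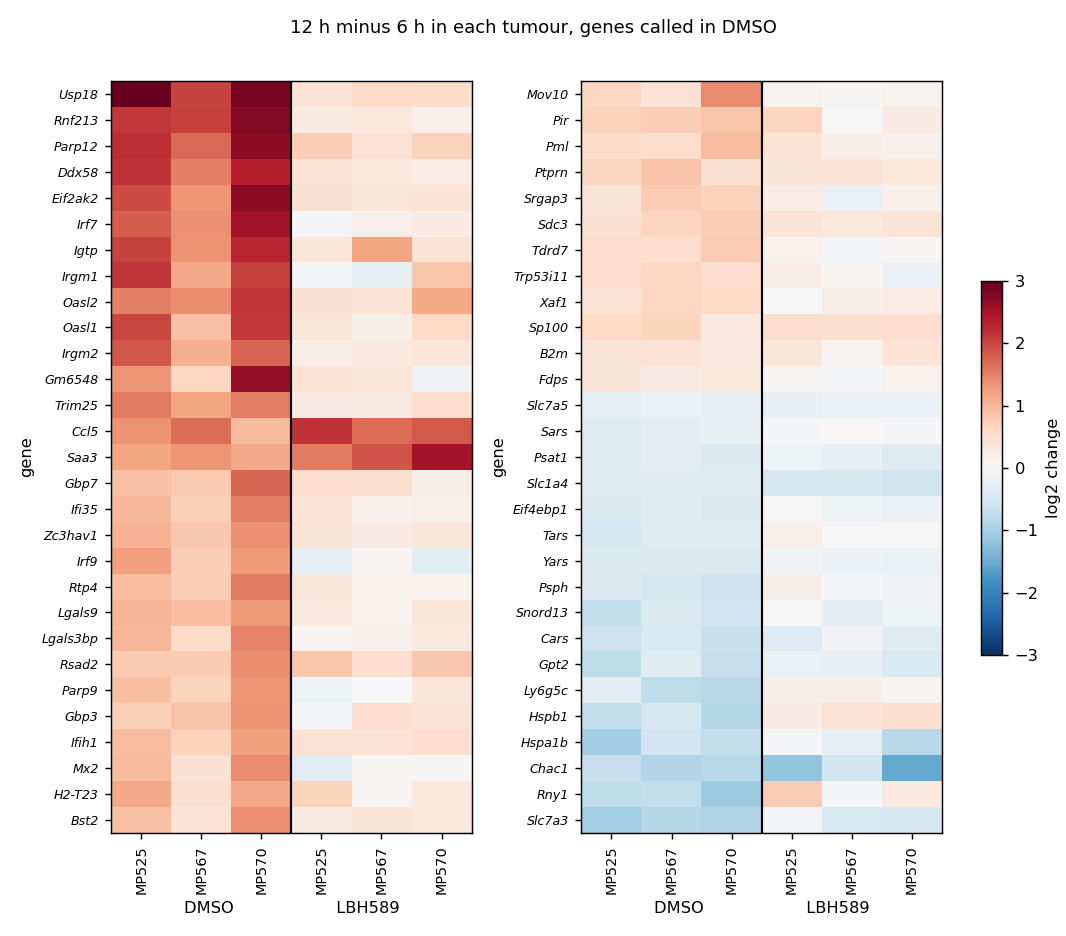
Change from 6 to 12 h in each tumour (log2 value at 12 h minus that at 6 h, colour scale capped at 3 in either direction) for the 58 genes called in DMSO, ordered by their mean change, with the same tumours in LBH589 at the right of each panel. The 3 DMSO columns have the same sign for every gene, and the colours of most interferon genes are paler in LBH589.

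The 7 interferon lists held 148 genes on the array, of which 130 were tested and 18 were too dim. Of the 130, 28 rose and 0 fell, beside 0.22% and 0.0911% of all genes. At an unadjusted limma p under 0.05 the counts were 74 higher and 0 lower, beside 3.68% and 3.44% of all genes. The 3 values at 12 h lay above all 3 at 6 h for 65 of the 130, beside 3.39% of all genes. The median log2 change of the 130 was 0.33, and that of all genes tested 0.0032. With all 4 arrays of MP525, MP567 or MP570 left out, 6, 23 and 14 genes of these lists were called higher. Leaving out 1 DMSO array gave 12 to 33, the lowest without the 6 h array of MP525. The lists were written with earlier results of these data known, so their direction is not independent evidence. Oas1a, Ifi44, Ifi47, Tgtp1, Gbp2 and H2-D1 had no probe set naming them alone and were not analysed here.

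Promoters of rising genes are shown first, because those of several interferon genes hold the core of the interferon-stimulated response element. The letters searched were GAAANNGAA on both strands, from 250 bases before to 50 after each start site of the RefSeq table for GRCm38.p6. Of the 41 genes that rose, 34 had a promoter in the table, and 16 of the 34 (47.1%) held the core. For the 17 genes that fell it was 0 of 11, and for all tested genes 1226 of 14381 (8.53%), or 7.27% of their 17839 promoters. The stretches below run 5′ to 3′ on the gene's own strand and stop at most 30 bases after the start, and capitals mark the core, read on the opposite strand in Ddx58 and Trim25. They are those of the largest rises whose matches fit that window. Ddx58 lies at chr4:40239796-40239862 (minus strand), Igtp at chr11:58199482-58199585 (plus), Irgm1 at chr11:48871391-48871490 (minus), Irgm2 at chr11:58214873-58214992 (plus) and Trim25 at chr11:88999354-88999432 (plus).
Ddx58: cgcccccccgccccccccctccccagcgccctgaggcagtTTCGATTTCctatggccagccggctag
Igtp: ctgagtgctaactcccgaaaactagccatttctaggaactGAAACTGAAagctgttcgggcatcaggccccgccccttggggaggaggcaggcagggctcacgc
Irgm1: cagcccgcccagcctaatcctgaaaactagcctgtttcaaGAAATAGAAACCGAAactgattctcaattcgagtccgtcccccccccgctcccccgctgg
Irgm2: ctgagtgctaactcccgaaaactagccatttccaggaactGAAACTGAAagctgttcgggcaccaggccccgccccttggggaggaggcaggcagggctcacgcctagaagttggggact
Trim25: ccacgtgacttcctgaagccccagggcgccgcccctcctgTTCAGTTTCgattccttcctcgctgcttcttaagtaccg
The core began 34 bases before the start in Igtp, 64 before in Irgm2, 24 before in Irgm1 for the nearer of its 2 overlapping matches and 9 before in Trim25. In Ddx58 it lay 3 bases after the start. Igtp and Irgm2, neighbours of 1 GTPase family, shared 102 of the first 104 bases shown and differed at 2. The core was not in the windows of Rnf213, Parp12, Irf7, Irf9, Oasl1 and Oasl2. For 2 blocks of the heat shock element (TTCNNGAA) the shares were 6 of 34 rising genes (17.6%), 2 of 11 falling genes (18.2%, Tars and Psph) and 8.52% of tested genes. The cyclic AMP response element (TGACGTCA) was in none of the promoters of called genes and in 3% of those of tested genes. A match describes the letters and shows no binding.

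Sensors of foreign nucleic acid were among the rises. Of 15 tested, 4 rose, beside 0.22% of all genes, and the median log2 change of the 15 was 0.36. At an unadjusted limma p under 0.05, 9 were higher and 0 lower, beside 3.68% and 3.44% of all genes. Ddx58, the gene of RIG-I, stood at 7.76, 8.12 and 7.89 in MP525, MP567 and MP570 at 6 h and at 9.92, 9.64 and 10.21 at 12 h. The tumours lay close together at both times and the groups did not overlap. The rise was 2.0 ± 0.14 (log2 change ± SE, limma adjusted p = 1.35e-05), or 4.01-fold. Eif2ak2, which encodes PKR, a kinase that stops translation when it binds double-stranded RNA, went from 6.46, 6.37 and 6.50 to 8.41, 7.69 and 9.22. Its 6 h values were nearly level and the 12 h values were spread, with MP570 highest and MP567 lowest. That rise was 2.0 ± 0.21 (limma adjusted p = 0.000871), or 3.99-fold. Trim25, the ubiquitin ligase that activates RIG-I, rose from 6.30, 7.29 and 7.15 to 7.87, 8.47 and 8.69, by 1.43 ± 0.17 (limma adjusted p = 0.00146, and 0.0669 without MP525). Ifih1, which encodes MDA5, rose from 7.52, 7.47 and 7.77 to 8.44, 8.17 and 9.0, by 0.95 ± 0.16 (limma adjusted p = 0.0257). In both genes every 12 h value lay above every 6 h value. The Ifih1 call ended without any 1 of 3 DMSO arrays (highest adjusted p = 0.136, without that of MP525 at 6 h) and without each tumour in turn (0.101, 0.102 and 0.23). Dhx58, which encodes the third RIG-I-like receptor LGP2, had 0.36, not a call (limma adjusted p = 0.459), and Ddx60 (1.03, adjusted p = 0.0525), Zbp1 (0.74) and the endosomal receptor gene Tlr3 (0.63) were not called either. The DNA sensing genes Cgas (0.02) and Sting1 (-0.06), Tlr7 (-0.02), Tlr9 (0.13) and the adaptor gene Mavs (0.11) stood near 0.

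None of the interferon genes themselves was called. Of 12 with a probe set, 8 were tested, with 0 called by limma and 0 at an unadjusted p under 0.05, and their log2 changes ran from -0.11 to 0.19. Ifna4 had 0.09, Ifng 0.02 and Ifnl3 0.19. Ifnb1, the interferon beta gene, was above the 25th percentile on none of the 12 arrays and was not tested. Its values were 5.57, 5.53 and 5.62 at 6 h and 5.26, 5.85 and 5.65 at 12 h, so the 3 tumours did not move one way.

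Among 22 receptor and signalling genes 2 transcription factors rose, beside 0.22% of all genes, and the list's median log2 change was 0.07. Irf7, which encodes a factor that drives interferon alpha genes and is itself induced by interferon, stood at 7.43, 7.64 and 7.86 at 6 h and at 9.23, 9.01 and 10.37 at 12 h. The groups lay more than 1 log2 unit apart, and MP570 was highest at both times. Irf7 rose by 1.90 ± 0.22, or 3.72-fold (limma adjusted p = 0.00146). Irf9, which encodes the DNA-binding partner of the STAT proteins, rose from 8.22, 8.72 and 8.70 to 9.45, 9.45 and 9.97, without overlap. Its change was 1.08 ± 0.15 (limma adjusted p = 0.00703). That call ended without any 1 of 3 DMSO arrays (highest adjusted p = 0.0548, without that of MP525 at 6 h) and without MP525 (0.218) or MP570 (0.149) as a whole. Stat2 had 0.49, which missed the threshold (limma adjusted p = 0.174). The receptor genes Ifnar1 (mean levels 9.72 and 9.71) and Ifnar2 (a change of 0.25), the kinase genes Jak1 (0.04), Tyk2 (0.01) and Jak2 (0.30), and Irf1 (0.25) and Irf3 (-0.05) were not called either. Of the 22, 6 were higher at an unadjusted p under 0.05 and 0 lower, beside 3.68% and 3.44% of all genes.

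The antiviral effectors held the largest rises. Of 55 tested, 18 rose, beside 0.22% of all genes. At an unadjusted limma p under 0.05, 47 were higher and 0 lower, beside 3.68% and 3.44% of all genes. In all 3 tumours 51 were higher, beside 16.2% of all genes. The median log2 change of the 55 was 0.53. Usp18, the protease that removes ISG15 and blunts the interferon receptor, stood at 8.35, 8.91 and 9.17 at 6 h and at 11.43, 10.93 and 12.03 at 12 h. The lowest 12 h value lay well above the highest 6 h value, and MP525 went furthest. It rose by 2.65 ± 0.25, or 6.27-fold, the largest change of all genes tested (limma adjusted p = 0.000416). Rnf213, a very large ubiquitin ligase with antimicrobial activity, rose from 8.17, 7.87 and 8.08 to 10.28, 9.92 and 10.84, by 2.31 ± 0.13, or 4.95-fold (limma adjusted p = 2.12e-06). It had the lowest p of the 58 genes. Parp12, an ADP-ribosyltransferase that acts against viruses, rose from 7.73, 8.30 and 8.28 to 9.94, 10.01 and 10.97, by 2.20 ± 0.21, or 4.6-fold (limma adjusted p = 0.000416). In both genes MP570 was highest at 12 h and the groups did not overlap.

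Both genes of the oligoadenylate synthetase-like proteins rose. Oasl2 went from 7.71, 7.59 and 7.90 to 9.22, 8.98 and 10.06 and Oasl1 from 8.37, 8.24 and 8.16 to 10.39, 9.12 and 10.29, both with no overlap. Their log2 changes were 1.69 ± 0.22 and 1.67 ± 0.19 (limma adjusted p = 0.00516 and 0.00146). Without MP525 neither was called (0.101 and 0.106), and Oasl1 was not called without MP570 (0.0967). Of the enzymes they resemble, Oas1b (1.49, limma adjusted p = 0.156) and Oas2 (1.06, 0.351) had changes that were large but uneven. Oas1b changed by 1.79 in MP525 and 2.22 in MP570 but by 0.47 in MP567. Rsad2, which encodes viperin, an enzyme that makes a chain-terminating nucleotide, rose by 0.99 ± 0.18 (limma adjusted p = 0.0437). Mx2, a dynamin-like GTPase gene, rose by 0.94 ± 0.17 (limma adjusted p = 0.0332) from levels near the dim limit, above the 25th percentile on 1 of 3 arrays at 6 h and on 3 of 3 at 12 h. Both calls ended without any 1 of 5 DMSO arrays (highest adjusted p = 0.226, without that of MP570 at 6 h) and without MP525 (0.277 and 0.34) or MP570 (0.456 and 0.461). Genes often used as interferon markers were higher in all 3 tumours without passing the test. Ifit1 had 0.58, Isg15 0.50 and Mx1 0.35, with limma adjusted p of 0.14 for Ifit1 and 0.259 for Isg15, and in Ifit1 and Isg15 every 12 h value lay above every 6 h value. Ifit3 had 0.04.

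A further 12 genes were named after their values were seen, 7 of the effector list (Ifi35, Rtp4, Lgals3bp, Parp9, Bst2, Sp100 and Xaf1) and 5 of no interferon list. Of the latter, Zc3hav1, which encodes the zinc finger antiviral protein, rose by 1.08 ± 0.12 (limma adjusted p = 0.00146, and 0.0719 without MP525 and 0.0512 without MP570). Its values were 8.28, 7.46 and 7.48 at 6 h and 9.31, 8.27 and 8.86 at 12 h, which overlap because MP525 started higher. Ifi35, Rtp4, Lgals9, Lgals3bp and Parp9 rose by 0.97 to 1.08 and Bst2, which encodes tetherin, by 0.88. Mov10, an RNA helicase gene, rose by 0.82, the nuclear body genes Pml and Sp100 by 0.67 and 0.53, and Tdrd7 and Xaf1 by 0.60 and 0.54. Their limma adjusted p lay between 0.00516 and 0.049. Each of these 11 calls ended without 1 or more single arrays, at a highest adjusted p from 0.053 (Ifi35) and 0.0538 (Lgals9) to 0.264 (Bst2) and 0.325 (Xaf1), mostly without the 6 h array of MP570. A second probe set had 0.05 for Ifi35 and 0.14 for Lgals3bp, so these rises rest on 1 of 2 probe sets.

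Interferon-induced GTPases, which attack the vacuoles of intracellular microbes, had the highest median of the 7 lists. Of 10 tested, 5 rose and 0 fell, beside 0.22% and 0.0911% of all genes, and the median log2 change was 0.76. At an unadjusted limma p under 0.05, 8 were higher, beside 3.68% of all genes. Igtp, whose product is also called IRGM3, went from 6.11, 6.47 and 7.05 to 8.14, 7.83 and 9.33. Irgm1 went from 6.68, 6.67 and 7.06 to 8.82, 7.80 and 9.12. Irgm2 went from 6.80, 7.31 and 7.66 to 8.67, 8.37 and 9.42. In all 3 genes the groups did not overlap, MP567 was lowest at 12 h and MP570 highest. The rises were 1.89 ± 0.26, 1.78 ± 0.27 and 1.56 ± 0.21 (limma adjusted p = 0.00619, 0.0128 and 0.00544). The Igtp call ended without the 6 h array of MP525 (0.0538), and that of Irgm1 without any 1 of 4 DMSO arrays (highest adjusted p = 0.0846, without that of MP525 at 6 h). Without MP525 as a whole none of the 3 was called (0.095, 0.284 and 0.109). The guanylate-binding protein genes Gbp7 (1.14 ± 0.19) and Gbp3 (0.97 ± 0.18) rose too, with limma adjusted p of 0.0259 and 0.0441. Their calls ended without any 1 of 3 and 5 DMSO arrays (highest adjusted p = 0.171 and 0.199), and Gbp3 stood near the dim limit at 6 h. Both were also lost without MP525 (0.196 and 0.203) or MP567 (0.0648 and 0.181), and Gbp3 without MP570 (0.267). Iigp1 (0.54), Gbp5 (0.31) and Gbp2b (-0.03) did not pass the test.

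Of 17 genes of MHC class I presentation 2 rose, beside 0.22% of all genes, and the median was 0.11. At an unadjusted limma p under 0.05, 6 were higher and 0 lower, beside 3.68% and 3.44% of all genes. H2-T23, which encodes the nonclassical molecule Qa-1, went from 6.51, 6.86 and 6.48 to 7.65, 7.35 and 7.63, without overlap, and rose by 0.92 ± 0.14 (limma adjusted p = 0.0128). B2m, the light chain of all class I molecules, went from 12.34, 11.95 and 11.89 to 12.72, 12.39 and 12.18. These values overlap, and the rise was 0.37 ± 0.06 (limma adjusted p = 0.0272). The H2-T23 call ended without any 1 of 4 DMSO arrays (highest adjusted p = 0.119, without that of MP570 at 6 h) and without MP525 (0.218) or MP570 (0.332). That of B2m ended without any 1 of the 6 (highest adjusted p = 0.168, without that of MP567 at 6 h) and without each tumour (0.323, 0.0715 and 0.264). Tap1 (0.44), H2-K1 (0.28) and the immunoproteasome genes Psmb8 and Psmb9 (0.11 each) did not pass.

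Of 9 chemokine genes linked to interferon, only Ccl5 was called, beside 0.22% of all genes called higher. At an unadjusted limma p under 0.05, 4 were higher and 0 lower, beside 3.68% and 3.44% of all genes. Ccl5, which attracts T cells, stood at 8.71, 8.72 and 9.81 at 6 h and at 10.07, 10.39 and 10.77 at 12 h, clear of each other. It rose by 1.33 ± 0.15 (limma adjusted p = 0.00146, and 0.064 without MP525). In LBH589 it rose as well, from 8.62, 9.51 and 9.60 to 10.78, 11.20 and 11.44, by 1.89 (limma adjusted p = 0.00011). Cxcl10, the chemokine gene most often read for interferon, had 0.38 (limma adjusted p = 0.866) and Cxcl9 0.84.

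**Figure D2:**
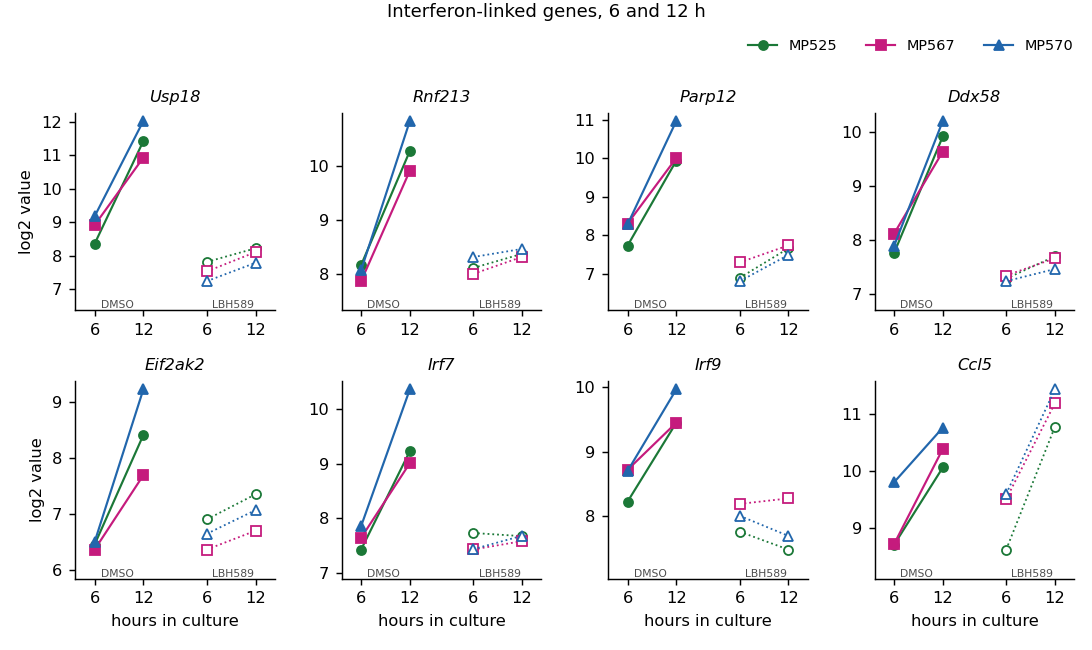
Log2 values of 8 interferon-linked genes at 6 and 12 h, 1 line for each tumour, with DMSO as filled symbols and solid lines and LBH589 as open symbols and dotted lines. In DMSO every line goes up, from 8.35 to 11.43 for Usp18 in MP525 for example, while in LBH589 only the Ccl5 lines climb steeply.

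The tumours differed in the size of the interferon rise. Over the 28 interferon-list genes that rose, the median change was 1.18 in MP525, 0.82 in MP567 and 1.54 in MP570. MP567 had the smallest change for 23 of the 28 and MP570 the largest for 20. Their median levels at 6 h were close (7.50, 7.53 and 7.72) and those at 12 h were further apart (8.77, 8.42 and 9.37). With 1 pair of cultures per tumour, the difference between tumours has no replicate and was not tested.

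The same 6 h in LBH589 gave a smaller change for most of these genes. The changes in DMSO and in LBH589 share no array, so their difference can be tested. Across all genes 0.724% rose and 1.27% fell in LBH589 between 6 and 12 h, and the difference of the changes was called for 2 genes, 0.0107%. These were Rnf213 and Ddx58. Rnf213 stood at 8.12, 8.01 and 8.32 in LBH589 at 6 h and at 8.38, 8.32 and 8.47 at 12 h, so that its DMSO change was larger by 2.07 ± 0.19 (limma adjusted p = 0.000689). Ddx58 stood at 7.28, 7.34 and 7.23 and then at 7.70, 7.66 and 7.46, a difference of 1.68 ± 0.20 (limma adjusted p = 0.00774). Both differences missed the threshold without MP525 as a whole (0.106 and 0.271) and without the block (0.0856 and 0.0764), and that of Ddx58 without MP570 too (0.272). Usp18 had a difference of 2.14 that did not pass (limma adjusted p = 0.0925). Over the 41 genes that rose in DMSO, 39 changed less in LBH589, all but Ccl5 and Saa3, and 5 were also called higher there (Ccl5, Saa3, Sp100, Sdc3 and B2m). Of all 18652 genes tested, 9241 had a DMSO change above that in LBH589. The median change of the 28 interferon genes in LBH589 was 0.35, 0.31 and 0.39 in the 3 tumours. At an unadjusted limma p under 0.05 the difference reached 48 of the 58 called genes, beside 1729 of the 18652 tested. Genes called in DMSO were chosen on that change, so these counts describe them and carry no test.

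**Figure D3:**
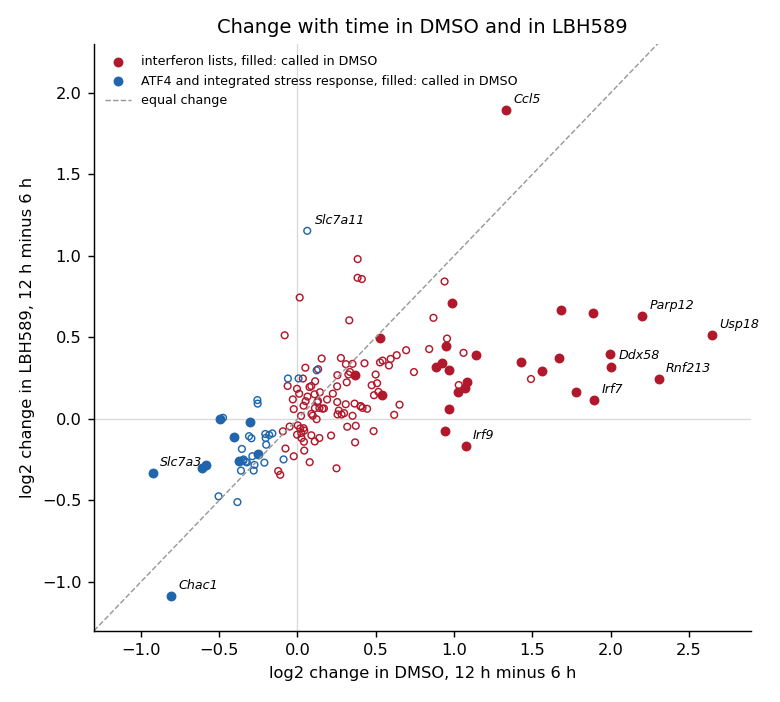
Log2 change from 6 to 12 h in DMSO (x axis) and in LBH589 (y axis) for the tested genes of the 7 interferon lists (red) and of the ATF4 list (blue), filled where called in DMSO, with a dashed line of equal change. Most filled red points lie below that line, Usp18 at 2.65 in DMSO the furthest right, and Ccl5 lies above it.

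Stress genes made up most of the 17 called falls. Of 36 genes of ATF4 and the integrated stress response, 9 fell and 0 rose, beside 0.0911% and 0.22% of all genes. At an unadjusted limma p under 0.05, 23 were lower and 0 higher, beside 3.44% and 3.68% of all genes. In all 3 tumours 29 were lower, beside 17% of all genes, and the median log2 change was -0.30. The number of calls rested on the block and on single tumours. It was 1 of the 36 with the tumour as a random block and 0 without any block. With all 4 arrays of MP525, MP567 or MP570 left out it was 1, 6 and 0, and without 1 DMSO array it ran from 1 to 7, with 1 each without the 6 h arrays of MP525 and MP570 and the 12 h array of MP570. Slc7a3, a transporter of arginine and lysine, had the largest fall of the 17. It stood at 10.73, 10.09 and 10.56 at 6 h and at 9.72, 9.23 and 9.67 at 12 h, each tumour about 1 log2 unit lower and the groups apart. The change was -0.92 ± 0.11 (limma adjusted p = 0.00249, and 0.0858 without MP570). Of the transporters of neutral amino acids, Slc7a5, the gene of LAT1, went from 13.26, 12.95 and 13.28 to 12.96, 12.76 and 13.00, a small fall of -0.25 ± 0.04 with overlapping groups (limma adjusted p = 0.0178). Slc1a4, which is not in the list, fell by 0.38 on the log2 scale (limma adjusted p = 0.0333). Slc7a11, the cystine transporter gene, had 0.06 in DMSO and did not move with them. The Slc7a5 and Slc1a4 calls ended without any 1 of 5 and of 6 DMSO arrays (highest adjusted p = 0.142 and 0.198). Neither was called with MP525 or MP570 left out whole (0.287 and 0.372 for Slc7a5, 0.34 and 0.456 for Slc1a4), and Slc1a4 was not called without MP567 (0.181).

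Enzymes of amino acid and glutathione metabolism fell as well. Chac1, which degrades glutathione, went from 9.98, 9.67 and 10.44 to 9.29, 8.79 and 9.60, without overlap, a change of -0.80 ± 0.14 (limma adjusted p = 0.0307). Gpt2, the mitochondrial alanine transaminase gene, went from 11.20, 10.88 and 11.14 to 10.43, 10.53 and 10.44, a change of -0.61 ± 0.09 (limma adjusted p = 0.0113). Its 12 h values were almost equal in the 3 tumours. Psph and Psat1, both of serine synthesis, had -0.50 and -0.38 (limma adjusted p = 0.0483 and 0.0425). The Gpt2 call ended without any 1 of 4 DMSO arrays (highest adjusted p = 0.114) and those of Chac1, Psph and Psat1 without any 1 of the 6 (0.195, 0.321 and 0.244), each time highest without the 6 h array of MP570. Without MP525 or MP570 as a whole none of these 4 was called (lowest adjusted p = 0.185, of Psph without MP525), and Psph and Psat1 were not called without MP567 (0.3 and 0.181). Asns, the asparagine synthetase gene and a common readout of ATF4, had -0.29 with groups that did not overlap, and its limma adjusted p of 0.0545 missed the threshold.

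Cars, Sars, Yars and Tars, genes of aminoacyl-tRNA synthetases, which load tRNAs, were 4 of the 17 falls. Cars and Sars are in the ATF4 list and Yars and Tars are not. The 4 were grouped after their values were seen, with no list of synthetases behind them, so they show nothing of the family as a whole. Cars went from 9.94, 10.08 and 10.34 to 9.31, 9.63 and 9.68, clear of each other, a change of -0.58 ± 0.08 (limma adjusted p = 0.00899). Yars had -0.43, Tars -0.41 and Sars -0.30 (limma adjusted p = 0.0139, 0.0437 and 0.0467). Eif4ebp1, a repressor of translation that ATF4 is known to induce, had -0.41 (limma adjusted p = 0.0111). The Cars call ended without any 1 of 3 DMSO arrays (highest adjusted p = 0.0897), those of Yars, Tars and Eif4ebp1 without any 1 of 5 (0.123, 0.216 and 0.0995) and that of Sars without any 1 of 6 (0.226). Without MP525 or MP570 as a whole all 5 calls ended, Cars at 0.192 and 0.331, Yars at 0.228 and 0.324, Tars at 0.424 and 0.456, Sars at 0.49 and 0.324 and Eif4ebp1 at 0.162 and 0.323. Without MP567 the call of Cars stayed and the other 4 ended (0.0648 to 0.262). The regulators themselves did not pass. Atf4 stood at 9.59, 8.97 and 9.61 at 6 h and at 9.17, 8.66 and 9.26 at 12 h, lower in all 3 tumours, with a mean change of -0.36 that missed the threshold (limma adjusted p = 0.377). Ddit3, the gene of CHOP, had -0.28 and Trib3, a feedback inhibitor, -0.31.

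In LBH589 the falling genes moved mostly the same way. Of the 17, 13 were also lower at 12 h than at 6 h in LBH589 and 3 were called lower there (Slc7a5, Slc1a4 and Chac1), while 15 had the less negative change. Across all genes tested, 1.27% were called lower in LBH589, and 9241 of 18652 had the higher change in DMSO. The 17 were chosen on their DMSO change, so these counts describe them and carry no test. Chac1 went further in LBH589, from 11.23, 10.40 and 11.51 to 10.04, 9.85 and 9.98, a change of -1.09 (limma adjusted p = 0.0043). Over the 36 ATF4-list genes the median change was -0.20 in LBH589. In DMSO the 17 falls were smallest in MP567 for 11 genes, with median changes of -0.50, -0.43 and -0.61 in MP525, MP567 and MP570.

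Of 26 heat shock genes 2 fell and 0 rose, beside 0.0911% and 0.22% of all genes. Hspa1b, an inducible HSP70 gene, stood at 9.10, 8.29 and 8.42 at 6 h and at 8.07, 7.72 and 7.68 at 12 h, lower in every tumour without overlap. Its change was -0.78 ± 0.14 (limma adjusted p = 0.0364). Hspa1a, nearly identical in sequence, had -0.34 and was not called, and probe sets may not tell the pair apart. Hspb1, the small chaperone HSP27, went from 9.12, 7.48 and 7.84 to 8.37, 6.99 and 6.97, which overlap because MP525 stood higher at both times. The change was -0.70 ± 0.11 (limma adjusted p = 0.0167), but a second probe set of Hspb1 had -0.10. The Hspa1b call ended without any 1 of 5 DMSO arrays (highest adjusted p = 0.175) and each tumour (0.277, 0.0802 and 0.296), and that of Hspb1 without any 1 of 3 arrays (highest 0.132) and without MP525 (0.159) or MP570 (0.361). The list's median was -0.06, with 2 genes higher and 3 lower at an unadjusted limma p under 0.05. Across all genes tested 3.68% were higher and 3.44% lower at that limit. In all 3 tumours 13 of the 26 were lower and 3 higher, beside 17% and 16.2% of all genes. Dnajb1 (-0.17), Hsph1 (-0.05), Hsp90aa1 (-0.07), Hspa8 (-0.05) and Bag3 (0.04) were not called.

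Immediate early genes, which respond within minutes to stimulation, had 0 of 37 called by limma and 1 higher and 3 lower at an unadjusted p under 0.05, with a median of -0.07. Of all genes tested 3.68% were higher and 3.44% lower at that limit. In all 3 tumours 14 of the 37 were lower and 4 higher, beside 17% and 16.2% of all genes. Fos and Egr1 had -0.22 each, Atf3 had -0.16, and Npas4, the neuronal activity gene, had -0.60 (limma adjusted p = 0.26). Metallothionein 2 (Mt2) had -0.59, with a limma adjusted p of 0.0585 just outside the threshold. Of 25 endoplasmic reticulum chaperone and unfolded protein response genes, 0 were called and 1 was higher and 1 lower at an unadjusted p under 0.05. The 25 p53 targets had 0 called with 1 and 1, and Cdkn1a, the gene of p21, had 0.02. The 25 genes of NRF2 and oxidative stress had 0 called and 2 higher.

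**Figure D4:**
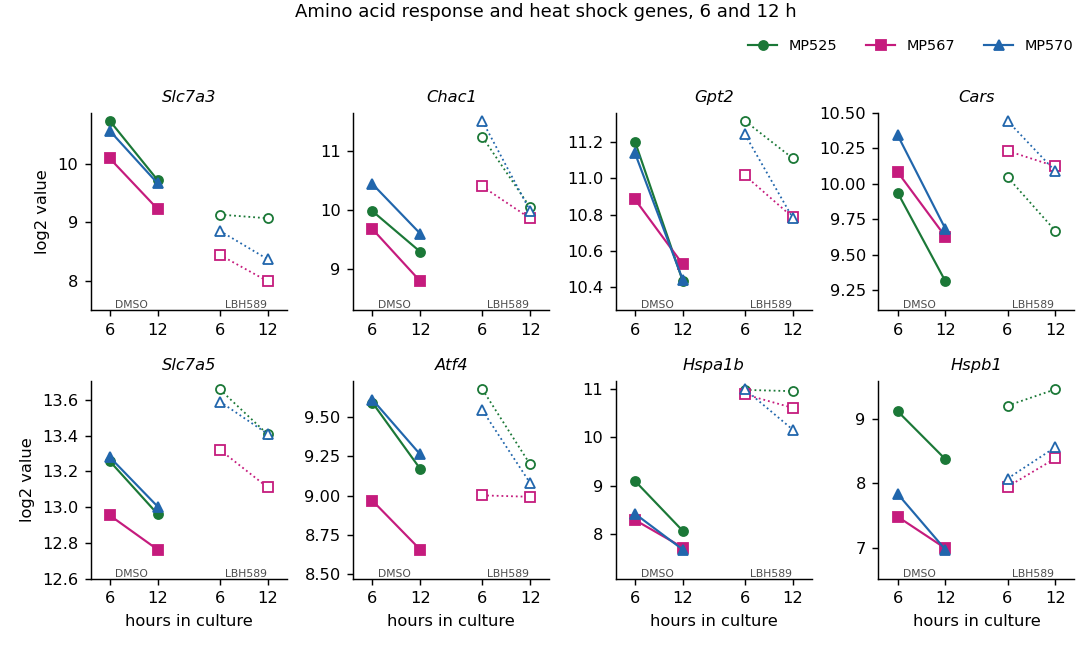
Log2 values of 8 genes of the amino acid and heat shock responses at 6 and 12 h, 1 line for each tumour, with DMSO as filled symbols and solid lines and LBH589 as open symbols and dotted lines. All DMSO lines go down, from 10.73 to 9.72 for Slc7a3 in MP525 for example. In LBH589 the Hspb1 lines go up.

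Outside the interferon and ATF4 lists, 13 genes rose and 8 fell. Of the 13, a predicted gene without a descriptive name had the largest change (1.52, limma adjusted p = 0.049, and 0.338 without the 6 h array of MP570), and Saa3, an acute-phase protein gene, the next. Saa3 stood at 7.09, 8.52 and 9.98 at 6 h and at 8.27, 9.84 and 11.12 at 12 h, so the tumours differed far more than the times and the groups overlap, but each tumour rose by 1.14 to 1.33. The change was 1.22 ± 0.16 (limma adjusted p = 0.00527, and 0.0669 without MP525), and in LBH589 it was 1.98 (limma adjusted p = 0.00011). Of 26 NF-kB and inflammatory genes, Saa3 was the only one called and 3 were higher at an unadjusted limma p under 0.05. Il6 had 0.69 in DMSO (limma adjusted p = 0.107) and 1.31 in LBH589 (limma adjusted p = 0.0019). Fdps, which makes farnesyl diphosphate on the path to cholesterol, went from 13.00, 12.73 and 13.00 to 13.39, 12.99 and 13.32, a change of 0.33 ± 0.05 with overlap (limma adjusted p = 0.0153). It was the only call of 24 genes of cholesterol synthesis and uptake, of which 6 were higher at an unadjusted p under 0.05 and 0 lower, with Pmvk (0.46), Lss (0.34) and Nsdhl (0.31) beside it. Across all genes tested 3.68% were higher and 3.44% lower at that limit. The Fdps call ended without any 1 of 4 DMSO arrays (highest adjusted p = 0.132) and without MP525 (0.312) or MP570 (0.331).

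Several more rises were named after their values were seen. Pir, an iron-binding nuclear protein gene, went from 8.69, 8.55 and 8.94 to 9.39, 9.29 and 9.78 and rose by 0.76 ± 0.11 (limma adjusted p = 0.00994). Ptprn, Srgap3, Sdc3 and Trp53i11 rose by 0.65, 0.62, 0.61 and 0.55 (limma adjusted p = 0.0332, 0.0332, 0.00696 and 0.0397). In these 4 genes the tumours differed more than the times and the groups overlap. Their calls ended without any 1 of 5, 6, 2 and 5 DMSO arrays (highest adjusted p = 0.198, 0.198, 0.0598 and 0.199), and that of Pir without any 1 of 3 (0.112). Ly6g5c, a gene of the MHC class III region, fell from 8.38, 8.79 and 8.95 to 8.03, 8.03 and 8.12, without overlap, a change of -0.64 (limma adjusted p = 0.0272). That call ended without any 1 of 5 DMSO arrays (highest adjusted p = 0.195, without that of MP570 at 6 h) and without each tumour (0.064, 0.273 and 0.474).

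Small non-coding RNAs were counted apart, a grouping made after the values were seen. Rny1, a Y RNA that binds the Ro protein, went from 9.64, 10.61 and 10.05 to 8.87, 9.88 and 8.96, a change of -0.86 ± 0.14 (limma adjusted p = 0.022). Its groups overlap and its call ended without any 1 of 5 DMSO arrays (highest adjusted p = 0.142) and without MP525 (0.113) or MP570 (0.331). Of 72 small nucleolar RNA genes tested, 1 fell, Snord13 (-0.58, limma adjusted p = 0.0167), and 36 were lower and 0 higher at an unadjusted p under 0.05. Across all genes tested 3.44% were lower and 3.68% higher at that limit. The Snord13 call ended without any 1 of 4 DMSO arrays (highest adjusted p = 0.113). Snord1b had the most negative change of all genes tested and was not called (-1.07, limma adjusted p = 0.154). It lay above the 25th percentile on 4 of the 6 DMSO arrays. Snora15 (-1.05) and Snord99 (-0.94) also had more negative changes than Slc7a3 (-0.92), without a call. The median change of the 72 was -0.34 in DMSO and -0.07 in LBH589, and it was largest in MP567 (-0.22, -0.57 and -0.26 in MP525, MP567 and MP570). Whether probe sets separate these RNAs from the introns that hold them was not tested. The 268 microRNA genes tested had a median of 0.05, with 0 called by limma and 18 higher and 3 lower at an unadjusted p under 0.05.

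No gene of the growth and division lists was called in solvent. Of 33 MYC target and ribosome biogenesis genes 0 were called by limma, though 16 were lower and 0 higher at an unadjusted p under 0.05, and 25 were lower in all 3 tumours, with a median of -0.14. Across all genes tested 3.44% were lower and 3.68% higher at that limit, and 17% were lower in all 3 tumours. Ppan, a factor of the large ribosomal subunit, had -0.36, Gar1 -0.32 and Ncl, the nucleolin gene, -0.12. Cytosolic ribosomal proteins had 0 of 23 called and 5 lower at an unadjusted p under 0.05 (median -0.09). Mitosis genes had 0 of 31 called with 1 higher at an unadjusted p under 0.05 and a median of 0.00, and DNA replication genes 0 of 37 with 1 higher and -0.01. In LBH589 over the same interval 14 of the 31 and 6 of the 37 were called lower. Myc itself had 0.02 and Mycn 0.02. Of 35 hypoxia and glycolysis genes 0 were called by limma and 4 were higher at an unadjusted p under 0.05. Egln3, an oxygen-sensing hydroxylase gene, changed by 0.02 in MP525, 0.37 in MP567 and 2.28 in MP570, so its mean of 0.89 came mostly from 1 tumour. Bnip3 and Ndrg1 likewise had 1.38 and 1.13 in MP570 and at most 0.26 in the other tumours.

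**Figure D5:**
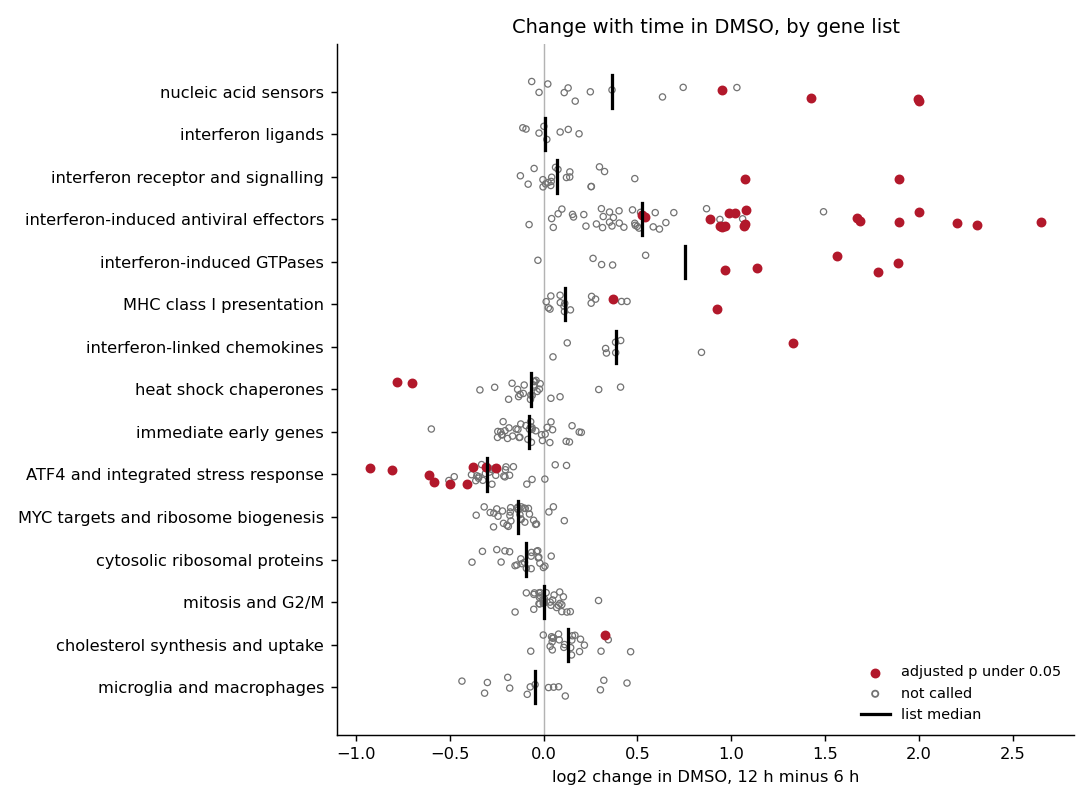
Log2 change from 6 to 12 h in DMSO of each tested gene of 15 lists, with called genes as filled red points, other genes as open points and the list median as a black bar. The medians of antiviral effectors (0.53) and GTPases (0.76) stand to the right of 0 and that of the ATF4 list (-0.30) to the left, while most lists centre near 0.

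Markers of other cells were read beside these results, because cultures from a tumour can hold host cells, and in bulk RNA fewer cells of a type and less RNA per cell cannot be told apart. Of 15 microglia and macrophage markers, 0 were called by limma, 1 was higher and 3 lower at an unadjusted p under 0.05, and 14 lay above the 25th percentile on all 6 DMSO arrays. Their mean level ran from 7.56 to 7.67 at 6 h and from 7.39 to 7.84 at 12 h. The median change of these markers was -0.04 in MP525, 0.23 in MP567 and -0.25 in MP570. C1qb had -0.43, Cd68 -0.30 and Fcer1g 0.44. The lists for plasmacytoid dendritic cells (5 tested), lymphocytes and NK cells (8), endothelial cells (7), fibroblasts and pericytes (8), astrocytes (8), the oligodendrocyte lineage (8), neurons (15), neural stem cells (14) and the cerebellar granule lineage (9) also had 0 called. At an unadjusted limma p under 0.05, these 9 lists had at most 3 genes higher and at most 1 lower, beside 3.68% and 3.44% of all genes. Neuronal markers had 3 higher, with Dcx at 0.34 and Syn1 at 0.28. Which cells carried the interferon and ATF4 transcripts was not tested.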

How the data were processed

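Total RNA of 12 cultures was hybridised to 1 array each, Affymetrix per the labels. For each probe set the authors deposited a log2 value; that it is base 2 was read from the range (1.50 to 14.5). The submitters' processing notes name Agilent Feature Extraction 10.7.3.1, which does not belong to Affymetrix arrays, and their normalization was not given in the sources used here. No further normalization was applied. Of 41345 probe sets, the array annotation gives 1 gene for 23521, several for 1814 and none for 16010. Only the first kind was used, and for 1082 genes with more than 1 the brightest was kept. A gene was tested if it exceeded the array's 25th percentile on at least 3 of 12 arrays. Of 1030 symbols in 35 pathway and 11 marker lists, 934 had a gene on the array.

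All 4 groups were fitted together with limma 3.58.1 in R 4.3.3 (mean-variance trend, 6 residual degrees of freedom), with the tumour as a block because each tumour gave 1 array to every group. Deviations from group means correlated at 0.450 to 0.805 for the 18 pairs of arrays of 1 tumour (0.694 to 0.805 within DMSO) and at -0.51 to -0.0577 for other tumours and groups, and 12 of 12 arrays correlated best with their own tumour. Tests were two-sided with Benjamini-Hochberg adjustment over 18652 genes, and a gene was called under 0.05. The fit was tested on simulated data with known changes. It recovered 62% of log2 changes of 0.5, 88% of 1, 100% of 2 and 96% of -1. Of its 186 calls 13 were false. The simulated residuals were drawn independently for each gene and array, without deviations shared by the genes of a culture. These rates therefore describe that setting and may not hold for the real arrays. Tables were made in Python 3.11.15 with pandas 2.3.3. Promoters came from a RefSeq table.

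Named are, from the called genes with 1 direction in every tumour, the 15 largest of each direction, up to 6 called members per list and direction, and a fixed set of interferon and stress genes. Other called genes are marked as named after their values were seen, and other uncalled genes were also chosen then. The members and lists were chosen with earlier results of these data known. Alternatives were other scalings, filters, probe set rules, blocks and fits, and leaving out each array or tumour.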

Additional observations from a re-analysis of the deposited data

Results flagged for a closer look

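The change with time was set against that in LBH589, and the difference passed its test for 2 genes. A further 2 are given because every tumour went one way in DMSO and the other way in LBH589, and their differences did not pass. Rnf213 and Ddx58 rose more in DMSO, by a log2 difference of 2.07 and 1.68 (limma adjusted p = 0.000689 and 0.00774), with the limits given above. Hspb1 and Ly6g5c fell in every tumour in DMSO and were higher at 12 h in every tumour in LBH589. Hspb1 stood at 9.20, 7.95 and 8.07 in LBH589 at 6 h and at 9.46, 8.38 and 8.56 at 12 h, and its difference of -1.09 missed the threshold (limma adjusted p = 0.0571). A second probe set of Hspb1 had -0.10 in DMSO. Ly6g5c stood at 7.67, 7.56 and 7.92 and then at 7.84, 7.72 and 7.99, and its difference was -0.78 (limma adjusted p = 0.16). The cause of these values was not tested.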

How the results depend on the processing

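All 58 called genes kept their direction under each of 20 alternatives. They moved one way in every tumour, and another block, trend or filter leaves the change itself as it is. Most alternatives thus could not have reversed a direction, and the count carries no test. Of 1158 values of called genes under them, 689 also kept the call and 469 lost it. Without the replicate block, 4 genes were called (4 higher, 0 lower), 0 for LBH589 and 0 for the difference of the changes, as tumour levels then stay in the spread. With the tumour as a random block, 23 were called (22 and 1), all among the 58, and 25 for LBH589. The 6 DMSO arrays alone with the replicate block called 144 (81 and 63), among them all 58, with 38 interferon-list genes higher and 15 ATF4-list genes lower. The difference between treatments cannot be fitted on them. Without a mean-variance trend 28 were called (22 and 6), and 140 for LBH589. Centring by array median or by reference genes gave 241 and 615 calls for LBH589 against 371, and quantile normalization 8 for the difference against 2. The reference genes were not all steady. They included B2m, called higher in DMSO, and their log2 changes in DMSO ran from -0.51 to 0.37. In LBH589 1 of them was called higher and 1 lower. Centring moved the median change of all genes to -0.0107 and 0.0381, and the share of higher calls from 70.7% to 73.1% and 77.2%. Leaving out 1 array or 1 tumour gave 13 to 58 calls, 6 to 44 higher and 1 to 14 lower, with 9 to 436 for LBH589 and 0 to 11 for the difference; why was not tested. The medians of 12 lists were followed. Of their 240 values under the alternatives 17 moved by more than the spread between tumours and 0 changed sign. With 3 arrays a group, small changes can be missed, and genes near the dim limit are measured poorly.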

Other observations

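Genes of the matrix and of lipid synthesis gave further values outside the comparisons above, named after they were seen. The matrix protease genes Mmp3 and Mmp13 had 0.94 and 0.80 in DMSO and were higher in all 3 tumours, without passing the test (limma adjusted p = 0.372 and 0.208). In LBH589 both rose between 6 and 12 h, by 1.70 and 2.04 (limma adjusted p = 0.015 and 0.00062). Of 31 matrix genes 0 were called in DMSO by limma, with 4 higher and 0 lower at an unadjusted p under 0.05, beside 3.68% and 3.44% of all genes. The lipid synthesis genes Scd1, Acss2 and Acly had 0.41, 0.41 and 0.24, each higher in all 3 tumours and not called, in a list of 23 with 4 higher and 1 lower at an unadjusted p under 0.05. Me1, which makes NADPH for lipid synthesis, had 0.53 (limma adjusted p = 0.14). The transferrin receptor gene Tfrc, often used as a reference gene, had -0.51 in DMSO (limma adjusted p = 0.259) and fell by 0.80 in LBH589 (limma adjusted p = 0.016).

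Among interferon genes too dim to be tested, Ifi204 changed by 1.88, 1.60 and 1.42 and Oas1g by 0.87, 1.09 and 1.34 in MP525, MP567 and MP570, each above the 25th percentile on 1 of 12 arrays.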
